A study of Mus musculus with 18 samples.

Results

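The Schlafen genes are a rapidly evolving mouse gene family. They share a Schlafen core domain and are known mainly from lymphocytes and myeloid cells, where several of them restrain proliferation or act against viruses. Many are induced by type I interferon, which signals through its receptor and the kinases Jak1 and Tyk2 to a DNA motif called the interferon-stimulated response element. The family is divided by protein length into a short group (Slfn1 and Slfn2), an intermediate group (Slfn3 and Slfn4) and a long group with a helicase-like C-terminal region (Slfn5, Slfn8 and Slfn9). These 7 genes, chosen by symbol from 52093 symbols in the expression files, are described here across 3 adipose samples. Each of the 7 had a single row, so mean expression, which decides between rows of a repeated symbol, decided nothing for them.

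RNA was sequenced from male wild-type C57BL/6 mice, 16 weeks old, that had received a high-fat diet for 12 weeks. The 3 tissues were mature adipocytes from inguinal white fat (iWAT adipocytes), mature adipocytes from epididymal white fat (eWAT adipocytes) and whole brown adipose tissue (BAT), with 6 libraries each. White adipocytes were the floating layer of collagenase-digested fat, whereas BAT was frozen whole, so that its other cell types were included; a cell type label calls it adipocytes, but the source and the extraction text give tissue. A treatment label reads regular chow for every sample, while titles, design and extraction text give the high-fat diet. All mice had the same genotype and diet, so that only tissues were compared. BAT libraries ran in other lanes than white ones, and tissue and lane cannot be told apart there. Reads assigned to gene rows ranged from 24655056 to 42518483 per library. The 10 rows with the most reads held 9.94% to 20.5% of the reads in white adipocyte libraries and 43.6% to 54.3% in BAT.

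White adipocyte samples also held macrophage transcripts. All 14 macrophage markers tested were higher in eWAT adipocytes than in iWAT adipocytes, and all 14 were higher in both than in BAT, and none of them was at 3 reads or fewer in all 6 libraries of any tissue. Their summed RPKM (reads per kilobase of transcript, relative to the reads of the library) ranged from 4364 to 6731 in eWAT adipocytes, from 763 to 1449.7 in iWAT adipocytes and from 47.2 to 91.1 in BAT. Adipocyte markers were present throughout, with a summed RPKM of 5871 to 7229 in BAT, 11585 to 16313 in iWAT adipocytes and 2617 to 8055 in eWAT adipocytes, and all 7 were lower in eWAT than in iWAT adipocytes. Brown adipocyte markers summed to between 2936 and 4299.8 in BAT and to at most 50.3 in white adipocytes. In such bulk samples, fewer cells of a type and less RNA per cell cannot be told apart.

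The 7 genes lie together on mouse chromosome 11 (mm9), within 267 kb between positions 82764851 and 83031774. Slfn1, Slfn2, Slfn3, Slfn4 and Slfn5 are on the plus strand, and Slfn8 and Slfn9 on the minus strand. Their coding sequences in GENCODE vM1 grow with the groups, from 1014 bases in Slfn1 and 1137 in Slfn2 through 1554 in Slfn3 and 1809 in Slfn4 to 2655 in Slfn5 and 2733 in both Slfn8 and Slfn9. The closest coding sequences among the 7 were Slfn3 and Slfn4, 95.3% identical over 1524 aligned bases, and Slfn8 and Slfn9, 92.7% identical over 2733. Of the stretches of 50 bases in each gene's transcripts, 13.9% in Slfn3, 8.07% in Slfn4, 14.6% in Slfn8 and 14.2% in Slfn9 also occurred in another Schlafen gene. In Slfn2 that share was 4.27%, in Slfn1 0.606%, and in Slfn5 it was 0%. Counts of Slfn3, Slfn4, Slfn8 and Slfn9 are therefore less certain than those of Slfn2 and Slfn5.

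The promoters are shown because one motif was found in the short and intermediate genes and another in the long genes. RefSeq promoter sequences, 300 bases each, were found for 7 of 7 members in a GRCm38.p6 table, and each had 1 exact match on mm9 chromosome 11, from which the coordinates come. The short and intermediate genes each carried the 9 letters ACTTCCTGG, which hold the core bound by ETS-family factors, on the strand of the gene. This motif was picked after the sequences had been seen, and occurred on either strand in 0.843% of 32841 mouse promoters of that length. In the following windows, with 40 bases on each side, capitals mark the motif.
Slfn1, chr11:82930208-82930296, plus strand: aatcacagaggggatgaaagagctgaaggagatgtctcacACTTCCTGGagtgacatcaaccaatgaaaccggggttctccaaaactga
Slfn2, chr11:82878519-82878607, plus strand: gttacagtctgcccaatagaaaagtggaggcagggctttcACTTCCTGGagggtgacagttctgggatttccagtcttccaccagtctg
Slfn3, chr11:83004750-83004838, plus strand: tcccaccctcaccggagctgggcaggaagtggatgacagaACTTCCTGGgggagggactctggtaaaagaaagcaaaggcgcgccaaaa
Slfn4, chr11:82988575-82988663, plus strand: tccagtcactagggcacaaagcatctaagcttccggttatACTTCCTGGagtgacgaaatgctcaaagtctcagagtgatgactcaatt

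The motif began 74 bases upstream of the annotated start site in Slfn1, 55 in Slfn2, 42 in Slfn3 and 73 in Slfn4. The long genes lacked it and instead carried the interferon-stimulated response element, searched on both strands as GAAA followed after any 2 bases by GAAA, and present in 3.44% of the same 32841 promoters. None of the short and intermediate promoters held it. In the next windows capitals mark this element, which reads TTTC, 2 bases and TTTC where it lies on the opposite strand.
Slfn5, chr11:82765409-82765498, plus strand: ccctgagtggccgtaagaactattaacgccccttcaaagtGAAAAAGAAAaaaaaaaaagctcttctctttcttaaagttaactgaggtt
Slfn8, chr11:82834311-82834400, minus strand: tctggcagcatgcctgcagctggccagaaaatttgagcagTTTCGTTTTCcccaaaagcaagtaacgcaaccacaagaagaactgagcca
Slfn9, chr11:82805328-82805417, minus strand: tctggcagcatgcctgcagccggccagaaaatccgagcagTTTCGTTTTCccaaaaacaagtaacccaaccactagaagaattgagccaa

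The element began 155 bases upstream of the start site in Slfn5, 48 in Slfn8 and 45 in Slfn9. RefSeq lists a second Slfn8 start site, 88 bases further into the gene, relative to which the same element begins at position −136. The promoters of Slfn8 and Slfn9 were 83.4% identical over 295 aligned bases, so their matches are not independent. The RefSeq start site of Slfn5 lay 753 bases inside the row used for counting. Of the other motifs searched on both strands, the gamma-activated site TTCNNNGAA was in none of the 7 promoters and in 8.30% of all. The letters GAGGAA, searched for the factor PU.1, were in Slfn9 and in 28.3% of all. A shorter core was not searched for PU.1. TATAAA was in Slfn4 and in 13.6% of all. No match overlapped another. A match of letters is a description and not evidence of binding.

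Mean levels of the 7 genes ranged from 0.0914 RPKM (Slfn1 in iWAT adipocytes) to 203 (Slfn2 in eWAT adipocytes). The plot of RPKM by library shows every value.

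**Figure D1:**
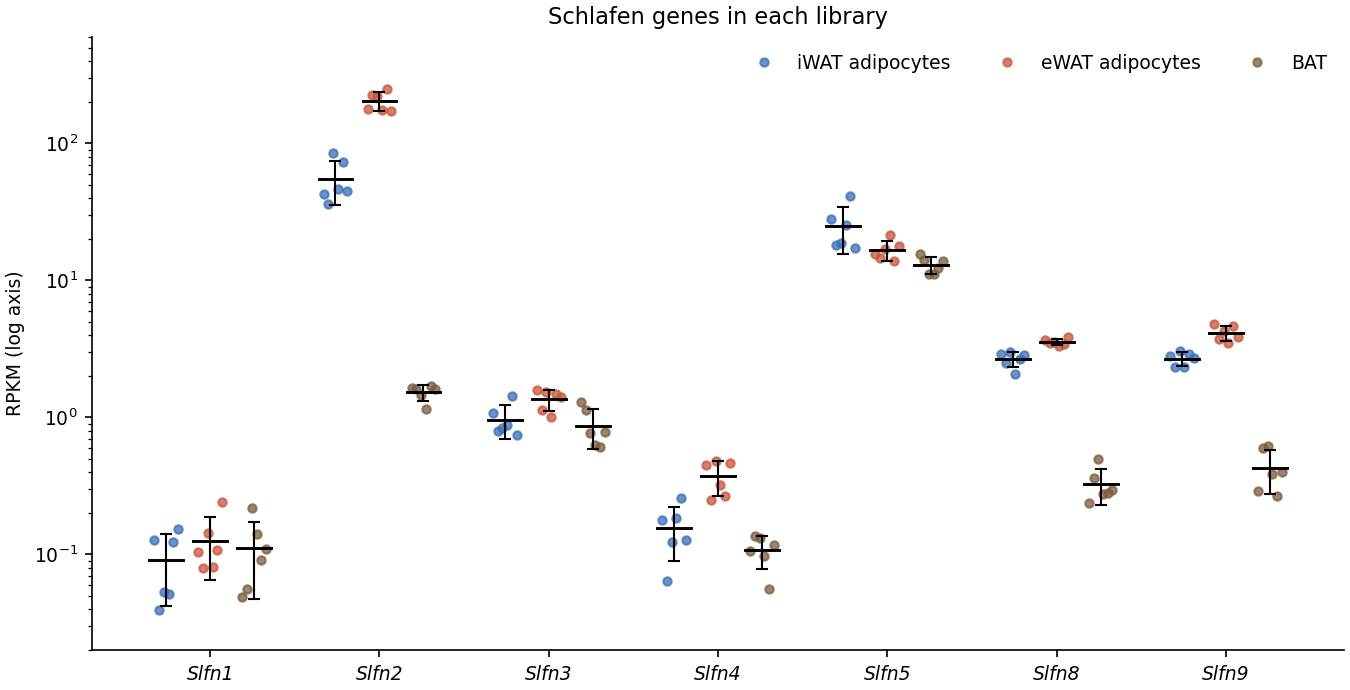
RPKM on a log axis of the 7 Schlafen genes in each of 18 libraries (points, 6 per tissue), with the mean as a horizontal bar and the SD as an error bar. Slfn2 sits at 172 to 248 RPKM in eWAT adipocytes, 36.3 to 85.2 in iWAT adipocytes and 1.15 to 1.70 in BAT, while Slfn5 stays between 11.05 and 41.5 in all 18 libraries.

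Slfn2, a short Schlafen whose loss makes T cells and monocytes leave quiescence, was the most abundant member in white adipocyte samples. In eWAT adipocytes its lowest, median and highest RPKM were 172, 199 and 248. In iWAT adipocytes they were 36.3, 45.8 and 85.2, and in BAT 1.15, 1.60 and 1.70. No library of any tissue overlapped with another tissue. Mean Slfn2 RPKM was 203 ± 32.1 (SD, n = 6) in eWAT adipocytes, 54.9 ± 19.6 (SD, n = 6) in iWAT adipocytes and 1.52 ± 0.199 (SD, n = 6) in BAT. Slfn2 is a gene of 2 exons between positions 82878614 and 82884180, and its counts rested on 1649 to 12731 reads in white libraries and on 44 to 103 in BAT. Rows on the opposite strand held at most 0.616% as many reads as Slfn2 in any tissue.

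Slfn2 was 3.70-fold higher in eWAT than in iWAT adipocytes (log2 fold change 1.89, SE 0.20, edgeR quasi-likelihood test, adjusted p = 3.6e-06). It was 88.5-fold higher in eWAT adipocytes than in BAT (edgeR log2 fold change 6.47, SE 0.13, adjusted p = 1.6e-14) and 23.5-fold higher in iWAT adipocytes than in BAT (edgeR log2 fold change 4.56, SE 0.21, adjusted p = 2.8e-11). These folds against BAT follow TMM scaling (a trimmed mean of M values, which centers the bulk of genes). With no scaling beyond the total count the log2 fold changes were 7.37 and 5.41, and the median of all genes moved to 0.89 and 0.87. Within sequencing lane 1, which held 2 iWAT and 4 eWAT adipocyte libraries, the log2 fold change between white samples was 1.73 (edgeR adjusted p = 0.0087), and within lane 2 it was 1.77 (edgeR adjusted p = 0.00095).

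Slfn1, the founding short member, named for its suppression of thymocyte growth, was near the limit of detection. Its row has 2 exons between positions 82930345 and 82936172. It had 4 to 15 reads per library in eWAT adipocytes, 2 to 9 in iWAT adipocytes and 3 to 10 in BAT. Mean Slfn1 RPKM was 0.126 ± 0.0604 (SD, n = 6), 0.0914 ± 0.0491 (SD, n = 6) and 0.111 ± 0.0630 (SD, n = 6) in the same order, and all 3 ranges overlapped. Its mean count was below the minimum of 10 in every comparison, so that it was not tested there. Without that filter its log2 fold changes were 0.42 for eWAT over iWAT adipocytes (SE 0.41, edgeR adjusted p = 0.44), −0.23 for eWAT adipocytes over BAT (SE 0.43, edgeR adjusted p = 0.66) and −0.69 for iWAT adipocytes over BAT (SE 0.45, edgeR adjusted p = 0.21).

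Of the intermediate genes, Slfn4, known from myeloid cells and activated macrophages, was low. Its row has 8 exons between positions 82988688 and 83003723. Its lowest, median and highest RPKM were 0.250, 0.384 and 0.478 in eWAT adipocytes, 0.0639, 0.152 and 0.256 in iWAT adipocytes, and 0.0563, 0.111 and 0.136 in BAT. The eWAT adipocyte libraries lay above every BAT library, while the highest iWAT library just passed the lowest eWAT library. Slfn4 was 2.38-fold higher in eWAT than in iWAT adipocytes (edgeR log2 fold change 1.25, SE 0.27, adjusted p = 0.00099) and 2.32-fold higher in eWAT adipocytes than in BAT (edgeR log2 fold change 1.21, SE 0.25, adjusted p = 0.00035). Between iWAT adipocytes and BAT the Slfn4 log2 fold change was −0.07 (SE 0.29, edgeR adjusted p = 0.83). These values rest on 7 to 74 reads per library.

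Slfn3, studied mainly in intestinal epithelium and T cells, is the member nearest to Slfn4 in sequence and position, with 4 exons between positions 83004832 and 83031774. Its lowest, median and highest RPKM were 1.001, 1.44 and 1.59 in eWAT adipocytes, 0.741, 0.859 and 1.44 in iWAT adipocytes, and 0.612, 0.780 and 1.29 in BAT. All 3 ranges overlapped. Slfn3 was 1.41-fold higher in eWAT than in iWAT adipocytes (edgeR log2 fold change 0.50, SE 0.15, adjusted p = 0.011), with log2 fold changes of 0.42 within lane 1 (edgeR adjusted p = 0.15) and 0.61 within lane 2 (edgeR adjusted p = 0.062). Against BAT its call depended on the scaling between libraries, as for Slfn5. The edgeR log2 fold change of iWAT adipocytes over BAT was −0.47 (SE 0.18, adjusted p = 0.029), whereas mean RPKM was the higher in iWAT adipocytes (0.961 ± 0.260 against 0.870 ± 0.279, SD, n = 6 each). That call was lost without BAT library 1 (edgeR adjusted p = 0.086) or without BAT library 2 (edgeR adjusted p = 0.067), and without the filter on low counts (log2 fold change −0.37, edgeR adjusted p = 0.069). Between eWAT adipocytes and BAT the Slfn3 log2 fold change was 0.06 (SE 0.17, edgeR adjusted p = 0.76). With limma, run on RPKM without TMM scaling, log2(RPKM + 0.1) gave 0.62 (adjusted p = 0.0050) and log2(RPKM + 1) gave 0.34 (adjusted p = 0.0048). The medians of all genes in these limma fits were 0.48 and 0.25.

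Among the long genes, Slfn5, a nuclear interferon-inducible member, had 7 exons between positions 82764851 and 82778352 and was abundant in all 3 tissues. Its lowest, median and highest RPKM were 17.4, 21.9 and 41.5 in iWAT adipocytes, 13.7, 16.2 and 21.3 in eWAT adipocytes, and 11.05, 13.2 and 15.6 in BAT. Every iWAT library was above every BAT library in RPKM, and the eWAT libraries overlapped with both. On TMM-scaled library totals the iWAT libraries (15.8 to 34.3) overlapped with the BAT libraries (15.5 to 20.4) too. Slfn5 was lower in eWAT than in iWAT adipocytes (edgeR log2 fold change −0.57, SE 0.19, adjusted p = 0.016), which is 1.49-fold higher in iWAT. It was the only one of the 6 members tested that was lower in eWAT adipocytes. The Slfn5 log2 fold change was −0.50 within lane 1 (edgeR adjusted p = 0.11) and −0.63 within lane 2 (edgeR adjusted p = 0.14).

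The direction for Slfn5 turned with the scale between eWAT adipocytes and BAT, and not between iWAT adipocytes and BAT. After TMM scaling, the log2 fold change was −0.23 for eWAT adipocytes over BAT (SE 0.11, edgeR adjusted p = 0.057) and 0.31 for iWAT adipocytes over BAT (SE 0.17, edgeR adjusted p = 0.11). The first passed without eWAT library 4 (edgeR adjusted p = 0.0089), BAT library 5 (edgeR adjusted p = 0.036) or BAT library 17 (edgeR adjusted p = 0.046), and the second without iWAT library 16 (edgeR adjusted p = 0.046), without the filter on low counts (log2 fold change 0.41, edgeR adjusted p = 0.025) and with limma on log2(RPKM + 0.1) (0.86, adjusted p = 0.00063). With no scaling beyond the total count, the corresponding values were 0.67 (edgeR adjusted p = 0.00013) and 1.18 (edgeR adjusted p = 2.8e-05). The medians of all genes were then 0.89 and 0.87. On TMM-scaled library totals, mean Slfn5 was 21.6 in iWAT adipocytes, 17.7 in BAT and 14.7 in eWAT adipocytes on the scale of RPKM. Leaving out the scaling moved Slfn3 to 0.96 for eWAT adipocytes over BAT (edgeR adjusted p = 0.00018) and to 0.39 for iWAT adipocytes over BAT (edgeR adjusted p = 0.098), and Slfn4 to 0.78 for iWAT adipocytes over BAT (edgeR adjusted p = 0.026).

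Slfn8 and Slfn9, long members related to the human tRNA- and replication-stress-directed Schlafens, had near-equal levels and the same order of tissues. The Slfn8 row has 6 exons between positions 82815660 and 82834312, and the Slfn9 row 6 exons between positions 82793131 and 82805332. The lowest, median and highest RPKM of Slfn8 were 3.30, 3.52 and 3.88 in eWAT adipocytes, 2.07, 2.77 and 3.02 in iWAT adipocytes, and 0.237, 0.288 and 0.500 in BAT. Those of Slfn9 were 3.50, 4.06 and 4.80 in eWAT adipocytes, 2.32, 2.76 and 3.06 in iWAT adipocytes, and 0.269, 0.392 and 0.623 in BAT. For both genes no library overlapped with another tissue. The BAT values rest on 26 to 57 reads for Slfn8 and 42 to 109 for Slfn9.

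Slfn8 was 7.34-fold higher in eWAT adipocytes than in BAT (edgeR log2 fold change 2.88, SE 0.15, adjusted p = 8.5e-11) and 5.44-fold higher in iWAT adipocytes than in BAT (edgeR log2 fold change 2.44, SE 0.17, adjusted p = 2.1e-09). The corresponding folds of Slfn9 were 6.47 (edgeR log2 fold change 2.69, SE 0.19, adjusted p = 4.2e-09) and 4.15 (edgeR log2 fold change 2.05, SE 0.19, adjusted p = 7.3e-08). With no scaling beyond the total count, the log2 fold changes against BAT were 3.78 and 3.29 for Slfn8 and 3.60 and 2.91 for Slfn9. Between the white samples the differences were smaller. Slfn8 was 1.33-fold higher in eWAT adipocytes (edgeR log2 fold change 0.41, SE 0.09, adjusted p = 0.00092) and Slfn9 1.53-fold higher (edgeR log2 fold change 0.61, SE 0.09, adjusted p = 6.1e-05). Within lane 1 these log2 fold changes were 0.21 for Slfn8 (edgeR adjusted p = 0.15) and 0.44 for Slfn9 (edgeR adjusted p = 0.051), and within lane 2 they were 0.54 (edgeR adjusted p = 0.020) and 0.72 (edgeR adjusted p = 0.0040).

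Other rows overlapped the long genes. The Slfn8 row contains that of LOC100505399 on the same strand, which held 95.5% to 97.7% as many reads as Slfn8 in each tissue, so that these reads were counted on both rows rather than split. The Slfn9 row contains LOC100505167 and LOC640793, which held 16.4% to 23.3% as many reads. A row on the strand opposite to Slfn5, 1700003F17Rik, held 0.738% to 1.72% as many. Slfn3 and Slfn4 overlapped no other row. The lowest exon of Slfn4 and of Slfn5 was at 0 in all 18 libraries, so that the transcript length of these rows includes exons without reads. For Slfn3 the lowest exon was at 0 in 6 iWAT adipocyte, 3 eWAT adipocyte and 6 BAT libraries. In the same order, this held in 1, 0 and 5 libraries for Slfn8 and in 1, 1 and 6 for Slfn9. For Slfn1 it held in 5, 3 and 4.

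**Figure D2:**
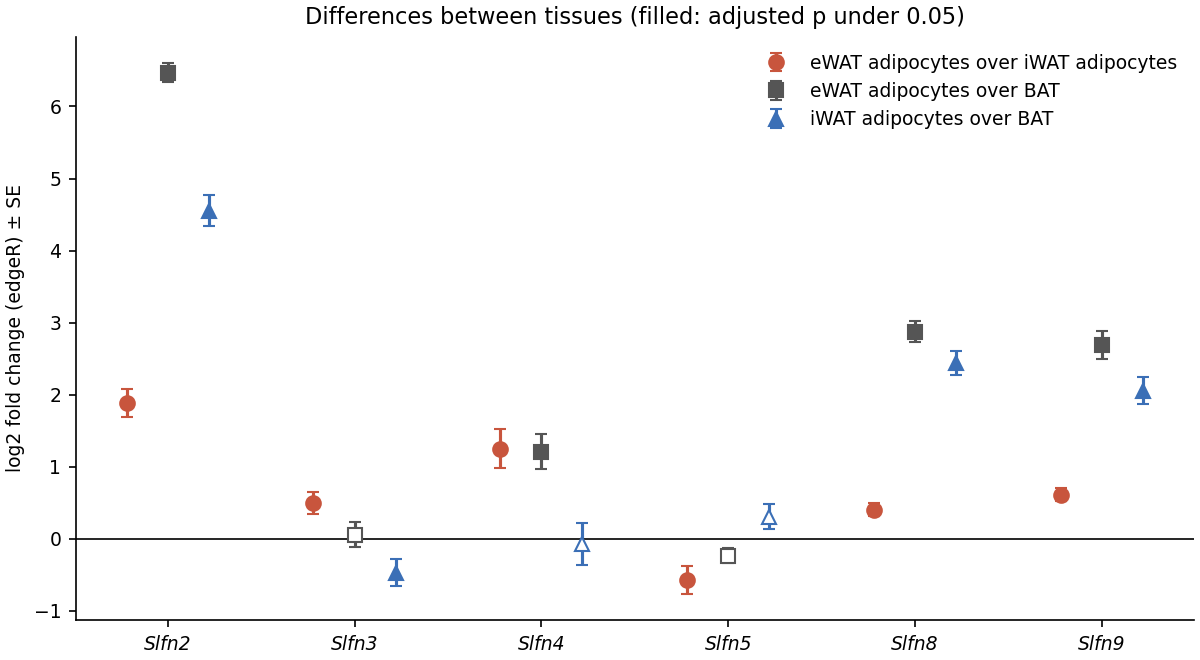
Log2 fold changes from edgeR with their SE for the 6 members tested, in 3 comparisons (6 libraries per tissue). Filled symbols passed an adjusted p of 0.05. Slfn2, Slfn8 and Slfn9 are above 0 in all comparisons, whereas Slfn5 is the only member below 0 for eWAT over iWAT adipocytes.

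Counted together, 6 of the 6 members tested passed the threshold between eWAT and iWAT adipocytes, where 68.6% of 19623 genes passed. Of them 5 were higher and 1 lower in eWAT adipocytes, against 34.5% and 34.1% of all genes. Between eWAT adipocytes and BAT 4 of 6 passed, against 82.5% of 20076 genes. All 4 were higher in eWAT adipocytes, as were 41.1% of all genes (8243), while 41.4% (8318) were higher in BAT. Between iWAT adipocytes and BAT 4 of 6 passed, against 75.3% of 19745 genes. Of them 3 were higher in iWAT adipocytes and 1 in BAT, against 38.1% (7529) and 37.2% (7336) of all genes. In RPKM the libraries did not overlap for 3 of the 7 members between eWAT and iWAT adipocytes, for 4 between eWAT adipocytes and BAT and for 4 between iWAT adipocytes and BAT, beside 44.0%, 68.4% and 65.3% of all genes tested. With most genes called in each comparison, these counts are no result about the members. With no scaling beyond the total count, the splits of all genes became 12962 higher and 4066 lower for eWAT adipocytes against BAT, and 13701 and 3054 for iWAT adipocytes against BAT, and with limma on log2(RPKM + 0.1) they were 11972 and 5740, and 12752 and 4402. The members called then numbered 6 of 6 and 5 of 6 without scaling, all higher in white adipocytes. The median log2 fold change of the members tested was 0.56, 1.95 and 1.18 in the 3 comparisons, beside −0.00, −0.02 and 0.01 over all genes. Without scaling the medians of the members against BAT were 2.86 and 2.05, beside 0.89 and 0.87 over all genes. For iWAT adipocytes against BAT, dropping the filter or using limma gave 4 members higher and 0 lower. Within lane 1 alone 2 members and 7301 of 19450 genes passed between white samples, and within lane 2 alone 4 members and 9923 of 19830 genes did. All 6 members kept their direction in both. The comparisons share libraries with each other, as each tissue enters 2 of them.

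**Figure D3:**
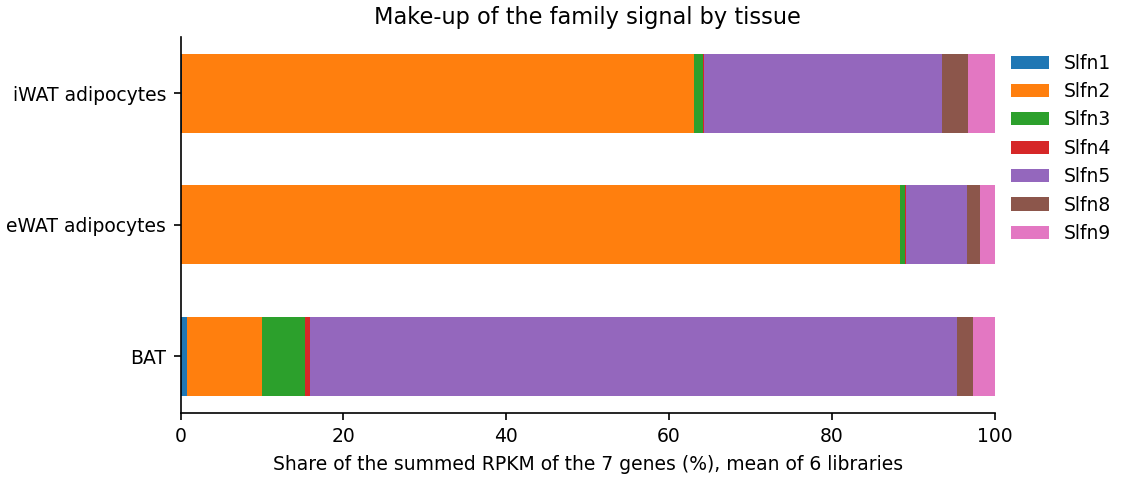
Share in percent of the summed RPKM of the 7 genes, mean of 6 libraries per tissue, as stacked bars. Slfn2 makes up 88.3% in eWAT adipocytes and 62.9% in iWAT adipocytes, and Slfn5 79.4% in BAT.

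The family signal changed its make-up with the tissue. The summed RPKM of the 7 genes was 229 ± 30.1 (SD, n = 6) in eWAT adipocytes, 86.3 ± 24.7 (SD, n = 6) in iWAT adipocytes and 16.4 ± 2.08 (SD, n = 6) in BAT. Slfn2 held 88.3% ± 2.40 of it in eWAT adipocytes, 62.9% ± 7.59 in iWAT adipocytes and 9.33% ± 0.981 in BAT (SD, n = 6 each). Slfn5 held 7.46% ± 1.99, 29.1% ± 7.13 and 79.4% ± 2.40 (SD, n = 6 each). The ratio of Slfn2 to Slfn5 RPKM within a library was 8.21 to 18.02 in eWAT adipocytes, 1.52 to 4.58 in iWAT adipocytes and 0.104 to 0.137 in BAT. By a cutoff of 1 RPKM on the mean, 5 members were expressed in eWAT adipocytes (Slfn2, Slfn3, Slfn5, Slfn8 and Slfn9), 4 in iWAT adipocytes (the same without Slfn3) and 2 in BAT (Slfn2 and Slfn5). The count in BAT depended on the scaling between libraries. On TMM-scaled library totals, mean Slfn3 was 1.17 in BAT, above that cutoff, and 0.837 in iWAT adipocytes, below it.

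Members were also compared with Slfn2 within each library, as log2((RPKM + 0.1) of the member over that of Slfn2), which shows unequal change. As Slfn2 itself differed in all 3 comparisons, a member that stayed flat would also differ from it, and the ratios are given as sizes. Relative to Slfn2, Slfn5 differed by −2.46 log2 units between eWAT and iWAT adipocytes (the first minus the second), by −6.61 between eWAT adipocytes and BAT and by −4.16 between iWAT adipocytes and BAT. The corresponding differences of Slfn8 were −1.53, −3.83 and −2.30, and those of Slfn9 −1.34, −3.92 and −2.58. The ratio of Slfn8 to Slfn9 was 0.870 ± 0.103 in eWAT adipocytes, 0.993 ± 0.0770 in iWAT adipocytes and 0.789 ± 0.150 in BAT (SD, n = 6 each).

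Since macrophage markers differed between tissues, the members were set against the mean log2(RPKM + 0.1) of the 14 markers. Slfn2 stood 0.55 ± 0.35 log2 units above that mean in eWAT adipocytes, 0.74 ± 0.24 above it in iWAT adipocytes and −0.42 ± 0.19 relative to it in BAT (SD, n = 6 each). The difference between eWAT and iWAT adipocytes was −0.18 (exact permutation p = 0.31), which does not show the 2 to be equal. Against BAT, Slfn2 was 0.98 higher relative to the mean of the markers in eWAT adipocytes and 1.158 higher in iWAT adipocytes (exact permutation, adjusted p = 0.0023 each). This does not hold for every marker. For eWAT adipocytes over BAT, Trem2 (edgeR log2 fold change 7.68) and Cd68 (6.93) changed more than Slfn2 (6.47). For iWAT adipocytes over BAT, Trem2 (5.36) and Cd68 (4.88) also changed more than Slfn2 (4.56). The medians of the 14 markers were lower than Slfn2, at 5.85 and 3.56. Since the markers themselves changed by medians of 2.22, 5.85 and 3.56 log2 units in the 3 comparisons, a gene that changed less than they did is lower relative to them in the sample where they are high. This was so for Slfn3, Slfn4, Slfn5, Slfn8 and Slfn9. Between eWAT and iWAT adipocytes their differences ran from −1.23 (Slfn4) to −2.64 (Slfn5). How much of each level came from macrophages was not tested.

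**Figure D4:**
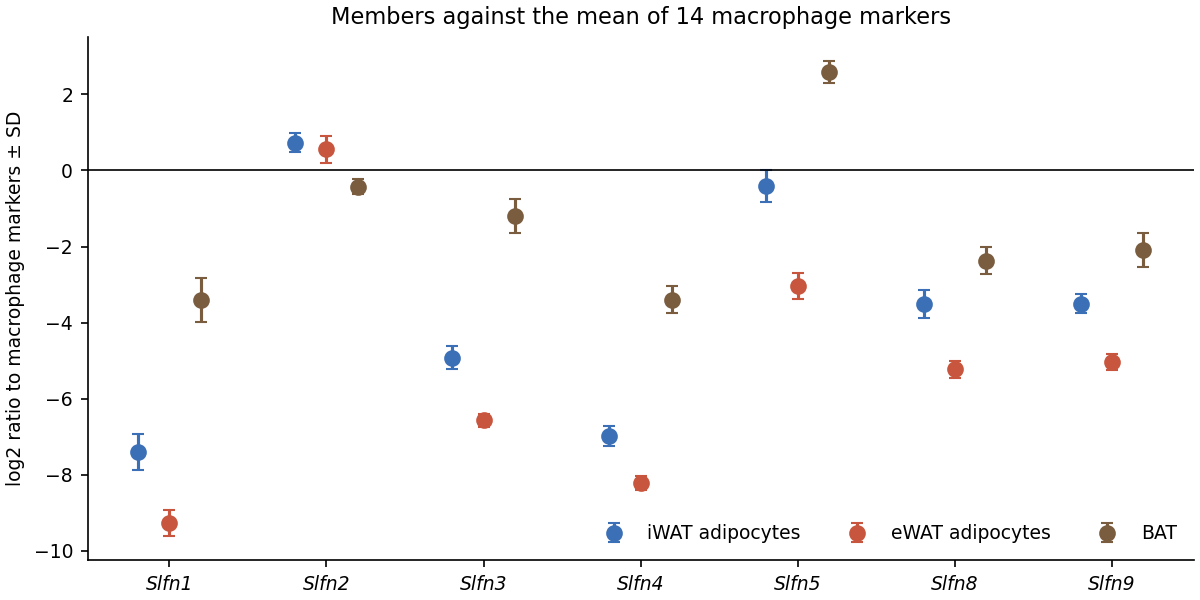
Mean log2 ratio of each member to the mean of 14 macrophage markers, with the SD over 6 libraries per tissue. Slfn2 lies between −0.42 and 0.74 in the 3 tissues, while Slfn5 moves from −3.05 in eWAT adipocytes to 2.59 in BAT.

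The genes around the interferon pathway did not follow one direction between the white samples. Of 9 genes of the type I interferon receptor and its signalling, 2 were higher and 4 lower in eWAT than in iWAT adipocytes. The receptor subunit Ifnar1 (log2 fold change 0.88, SE 0.09) and the kinase Tyk2 (0.85, SE 0.11) were higher, and the feedback inhibitors Usp18 (−1.30, SE 0.17) and Socs1 (−0.70, SE 0.10) were lower, with edgeR adjusted p of at most 5.2e-05. Of 8 interferon regulatory factors 4 were higher and 2 lower, led by Irf5, a factor of myeloid cells, at 1.67 (SE 0.14, edgeR adjusted p = 5.4e-07) and by Irf7, a factor that amplifies interferon production, at −0.71 (SE 0.15, edgeR adjusted p = 0.00075). Of 30 interferon-stimulated genes 8 were higher and 15 lower, with a median log2 fold change of −0.28. Trim25, a ubiquitin ligase of RNA sensing, was higher (edgeR log2 fold change 1.74, SE 0.16, adjusted p = 1.4e-06) and Ifit3, an interferon-induced antiviral protein, lower (−1.35, SE 0.16, edgeR adjusted p = 1.2e-05). Of the 3 members with the response element in the promoter, Slfn8 and Slfn9 were higher and Slfn5 lower in eWAT adipocytes.

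Against BAT more of these genes were higher in white adipocytes. Of all genes tested, 41.1% were higher and 41.4% lower in eWAT adipocytes, and 38.1% and 37.2% in iWAT adipocytes. With most genes called, the counts of these lists are given as a description. Of the 30 interferon-stimulated genes, 18 were higher and 5 lower in eWAT adipocytes (median log2 fold change 0.69), and 24 were higher and 2 lower in iWAT adipocytes (median 0.91). The chemokine Cxcl10 was among the largest, with log2 fold changes of 3.85 (SE 0.32, edgeR adjusted p = 2.1e-08) and 5.00 (SE 0.24, edgeR adjusted p = 3.7e-11). Ifi203 was lower in both, at −1.14 (SE 0.10) and −1.06 (SE 0.17). Of the 9 signalling genes, 5 were higher and 1 lower in eWAT adipocytes, and 7 were higher and 1 lower in iWAT adipocytes. Of the 8 regulatory factors, 6 were higher and 2 lower, and 6 higher and 1 lower. Irf8, a myeloid factor, was 3.79 (SE 0.16) and 2.97 (SE 0.16) log2 units above BAT.

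Other Schlafen symbols in the files were counted too. Slfn10-ps, annotated as a pseudogene between Slfn8 and Slfn2, had a coding sequence 93.5% identical to that of Slfn9 and 19.7% of its stretches of 50 bases in another Schlafen gene. It reached 3.01 ± 0.668 RPKM (SD, n = 6) in eWAT adipocytes, 0.956 ± 0.227 in iWAT adipocytes and 0.0398 ± 0.0134 in BAT, the last from 2 to 8 reads per library. Its log2 fold change was 1.64 (SE 0.17, edgeR adjusted p = 4.0e-06) for eWAT over iWAT adipocytes. Slfn14-ps had at most 1 read in any library, and Slfnl1, a related gene on chromosome 4, at most 2.

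**Figure D5:**
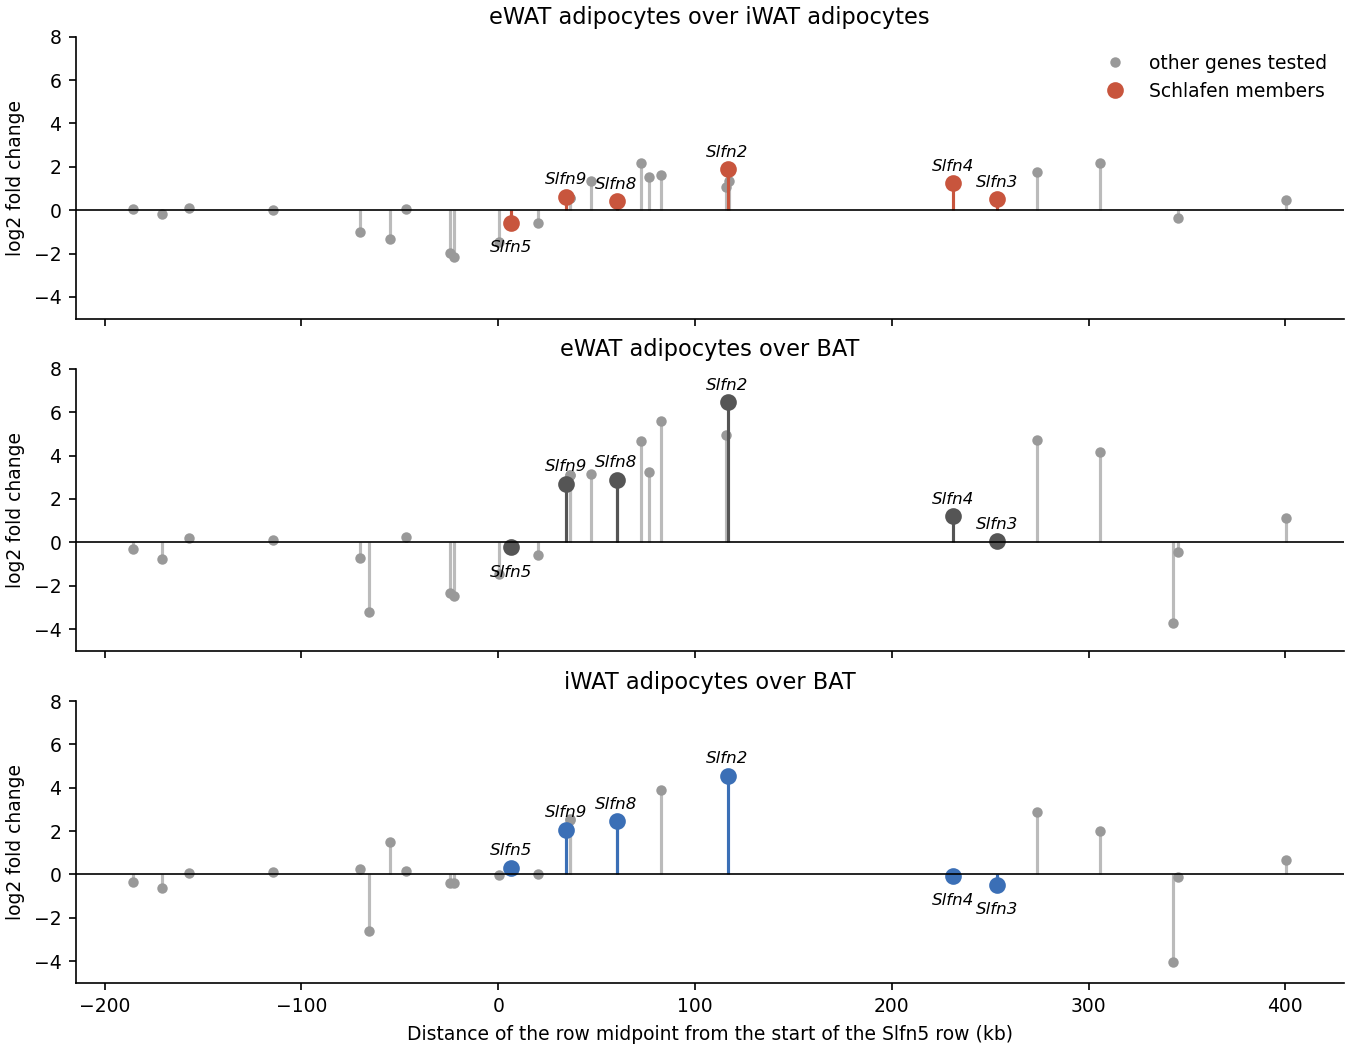
Log2 fold changes along the chromosome 11 cluster in 3 comparisons, against the distance in kb of each row's midpoint from the start of the Slfn5 row. Colored points are Schlafen members tested and gray points other symbols tested within 200 kb of the cluster, among them rows that overlap members. Members with values near 0 lie beside genes of large positive or negative change.

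Direction was not shared along the locus. Within 200 kb of the outermost members there were 38 other symbols. Of 24 tested between eWAT and iWAT adipocytes, 12 were higher and 7 lower in eWAT adipocytes, beside 34.5% and 34.1% of all genes. Among those higher, LOC100505399, LOC100505167 and LOC640793 lie within the Slfn8 and Slfn9 rows, and AK144941 and LOC100504448 lie opposite to Slfn2. Slfn10-ps was also among them. Among those lower, 1700003F17Rik lies opposite to Slfn5. The counts are therefore not of separate loci only. The largest changes were those of the unnamed rows AK079793 (2.17) and ENSMUSG00000083161 (2.15). Between eWAT adipocytes and BAT, 12 of 24 were higher and 10 lower, beside 41.1% and 41.4% of all genes. The largest changes were those of Slfn10-ps (log2 fold change 5.59) and AK144941 (4.95). Both rest on few BAT reads, 29 for Slfn10-ps and 2 for AK144941 over all BAT libraries. In the eWAT adipocyte libraries together they had 2194 and 121. Between iWAT adipocytes and BAT, 9 of 21 were higher and 4 lower, beside 38.1% and 37.2% of all genes. Here AI450353 (−4.02) and Slfn10-ps (3.92) led. The median log2 fold change of these genes was 0.25, 0.22 and 0.10 in the 3 comparisons.

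Profiles most like those of the members were sought among 19941 genes over 18 libraries, as the smallest root mean square difference of centered log2(RPKM + 0.1). Slfn2 was closest to Cd44, a hyaluronan receptor (difference 0.20), Igsf6 (0.22) and Kcnn4, a potassium channel (0.23), beside a spread of its own profile of 2.95 (SD). Slfn5 was closest to Ppp1r2, an inhibitor of protein phosphatase 1 (0.13), Lnx1 (0.14) and 4931406P16Rik (0.14), beside a spread of 0.47. Slfn8 was closest to its overlapping row LOC100505399 (0.03) and then to P4hb, the protein disulfide isomerase (0.16), and LOC100504013 (0.18). Slfn9 was closest to Slfn8 (0.19), LOC100505399 (0.20) and Pdk3 (0.21). Slfn4 was closest to Gm10792 (0.16), Inf2 (0.20) and Slc38a9 (0.21), and Slfn3 to Unk (0.20), Mll1 (0.20) and Plxnb3 (0.21), where the spread of the Slfn3 profile was 0.40.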

How the data were processed

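For each library the authors deposited a table with read counts, RPKM and exon scores (the lowest and highest normalized exon value) per gene row. Submitters' processing notes name cutadapt 1.16, HISAT2 2.1.0 and mm9; the counting program and its treatment of strand and multiply mapped reads are not given in the sources used here. RNA had been prepared with an NEBNext Ultra kit. The row with the highest mean RPKM stood for a symbol. Counts were compared with edgeR 4.0.16 in R 4.3.3 (quasi-likelihood test, two-sided, TMM, 12 libraries per comparison). Genes needed a mean count of at least 10, and Benjamini-Hochberg adjustment ran over all genes with a threshold of 0.05. In simulated data both groups were drawn from the same tissue, with changes of at least 2-fold planted in some genes. From iWAT adipocyte libraries, edgeR recovered 93.3% of the changed genes, with 4.71% false calls. From BAT libraries it recovered 92.8%, with 6.74% false calls, the latter above the nominal 0.05. This same run stood for both comparisons with BAT. No simulated set held 2 different tissues, so differences in make-up between tissues were not covered, nor were smaller changes. DESeq2 1.42.0 and limma 3.58.1 were alternatives. Ratios used exact permutation over libraries and a pseudocount of 0.1. The text names the 7 members and, of each list, genes among the 2 largest changes in each direction. Members and lists were chosen with earlier results of these data known. Promoters came from RefSeq, coding sequences from GENCODE vM1.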

Additional observations from a re-analysis of the deposited data

How the results depend on the processing

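All 6 members tested passed between eWAT and iWAT adipocytes in all 12 fits that left out 1 library, with DESeq2, limma or no filter, without scaling, and with lane as a covariate; within lane 1 alone 2 members and 7301 genes passed, and within lane 2 alone 4 and 9923. The fits within a lane and the levels on TMM-scaled totals were added after the data had been seen. Leaving out 1 library gave 12667 to 13563 genes there; 4 to 5 members and 16270 to 16552 genes between eWAT adipocytes and BAT; and 3 to 5 members and 14434 to 14833 genes between iWAT adipocytes and BAT. The calls of Slfn2, Slfn8 and Slfn9 against BAT held in every alternative run. Values near 0 against BAT turned. For eWAT adipocytes over BAT, Slfn3 turned to −0.027 with a replicate block and −0.057 without BAT library 17 (−0.057 to 0.18 over the libraries left out), and Slfn5 to 0.67 without scaling, 0.35 with limma on log2(RPKM + 0.1) and 0.33 on log2(RPKM + 1). For iWAT adipocytes over BAT, the same 3 settings gave 0.39, 0.15 and 0.072 for Slfn3 and 0.78, 0.27 and 0.059 for Slfn4, which was also 0.028 without the filter and 0.064 without iWAT library 2 (−0.24 to 0.064 over the libraries left out). The unscaled values go with the shift of all genes given above. The limma fits, on RPKM without TMM scaling, shifted all genes too. Their medians over all genes were 0.48 (RPKM + 0.1) and 0.25 (RPKM + 1) for eWAT adipocytes over BAT. For iWAT adipocytes over BAT these medians were 0.54 and 0.29. The cause of the turned values was not tested. Slfn5 passed for eWAT adipocytes against BAT without eWAT library 4 (−0.31) or BAT library 5 (−0.28) or 17 (−0.28), and for iWAT adipocytes against BAT without iWAT library 16 (0.37), without scaling (1.18), without the filter (0.41) and with limma (0.86 and 0.82). Slfn3 passed for eWAT adipocytes against BAT without scaling (0.96) and with limma (0.62 and 0.34), and was lost for iWAT adipocytes against BAT without the filter (−0.37). A cutoff of 0.1 RPKM counted 7 members in BAT. Of 39 ratios, 39 kept direction and call with a pseudocount of 1.

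Libraries of different tissues share numbers in their titles, but the labels do not say that a number marks a mouse. The deviations of libraries with the same number correlated at −0.01 on average between eWAT and iWAT adipocytes (−0.23 to 0.37, 6 pairs), 0.02 between eWAT adipocytes and BAT (4 pairs) and −0.01 between iWAT adipocytes and BAT (4 pairs). With a replicate block, 6, 5 and 4 members and 12836, 15149 and 12555 genes passed in these comparisons; the added member was Slfn5 (log2 fold change −0.35, edgeR adjusted p = 0.028). Depth limited Slfn1, with 2 to 15 reads per library, which did not pass with any alternative that tested it, and Slfn4.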

Other observations

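Markers of lymphocytes, in which several Schlafen genes were first described, were low in all 3 tissues. T and NK cell markers (10 genes) summed to 0.792 to 1.401 RPKM in eWAT adipocytes, 0.756 to 2.04 in iWAT adipocytes and 0.393 to 0.784 in BAT, and B cell markers (5 genes) to 3.09 to 5.35, 1.38 to 3.42 and 0.629 to 1.25 in that order. Monocyte and neutrophil markers (10 genes) summed to 10.6 to 16.04, 9.13 to 11.8 and 1.59 to 2.95 RPKM, with Camp and Ngp at 3 reads or fewer in each of the 18 libraries. Dendritic cell markers (6 genes) ran the other way between white samples, with 0 of 4 tested higher and 3 lower in eWAT than in iWAT adipocytes. Of 5 endothelial markers 5 were lower in eWAT than in iWAT adipocytes and 5 lower than in BAT. Of 5 fibroblast and progenitor markers, 1 was lower in eWAT than in iWAT adipocytes, and 3 were higher in each white sample than in BAT. Of the same markers, Pdgfra was lower in iWAT adipocytes than in BAT (edgeR log2 fold change −0.89, adjusted p = 0.010). Mast cell markers (5 genes) gave 1 of 4 tested higher in eWAT than in iWAT adipocytes, and 2 of 3 tested lower in iWAT adipocytes than in BAT. Skeletal muscle markers (4 genes) were higher in BAT than in both white samples, in 4 of 4, and summed to between 1.22 and 98.6 RPKM there. The part of these cell types in the Schlafen values was not tested.

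Across mice within a tissue, 36 correlations of log2(RPKM + 0.1) were computed, of 6 members with the macrophage markers and with the interferon-stimulated genes. None passed adjustment (lowest adjusted p = 0.13, exact permutation, n = 6). For Slfn2 and the macrophage markers Pearson r was 0.898 in iWAT adipocytes (Spearman rho 0.943, r = 0.835 without the 2 farthest libraries; exact permutation p = 0.017 for both, adjusted p = 0.14 and 0.24), −0.080 in eWAT adipocytes (rho −0.20, r = −0.38 without 2; exact permutation p = 0.87 and 0.71, adjusted p = 0.98 and 0.83) and 0.810 in BAT (rho 0.543, r = 0.748 without 2; exact permutation p = 0.057 and 0.30, adjusted p = 0.28 and 0.49). The largest Pearson r of the 36 was that of Slfn3 with the interferon-stimulated genes in iWAT adipocytes, at 0.913 (rho 0.886, exact permutation p = 0.0069 and 0.033, adjusted p = 0.13 and 0.24), which fell to 0.534 without the 2 farthest libraries.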
